A study of Homo sapiens with 6 samples.

Results

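IL24, 3 of its cytokine relatives and 4 chains of the receptors they use were followed across the arrays of 2 stable MDA-MB-231 lines. The 8 members were taken by gene symbol (IL24, IL20, IL19, IL10, IL20RA, IL20RB, IL22RA1 and IL10RB) out of 19771 genes named on the array, and each had 1 probe. IL24 was selected on its difference between the lines in these same arrays, so its values are a description and carry no test, while the other 7 members entered as its relatives. MDA-MB-231 is a highly invasive cell line from a triple-negative breast cancer. The study asked which genes differ when maspin, a serpin encoded by SERPINB5, is overexpressed in these cells. MB-231-maspin carries a lentiviral construct in which a CMV promoter drives maspin linked by a P2A peptide to the fluorescent protein ZsGreen, whereas MB-231-control has the vector with ZsGreen only; each line is a pool of the clones that survived blasticidin selection. Total RNA was hybridised to 1-colour 3D-Gene arrays, with 3 arrays labelled for each line, and no source says whether these 3 were separate cultures, so that p-values measure only the spread between these arrays, which may be technical.

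The cytokines of the IL-10 family are secreted proteins that signal through pairs of class II cytokine receptor chains, and the receptors pass the signal to JAK kinases and STAT transcription factors, above all STAT3. IL-19, IL-20 and IL-24 form a subgroup whose genes lie side by side with IL10 on the long arm of human chromosome 1. IL-10 itself comes mainly from leukocytes and restrains inflammation, whereas the IL-20 subgroup acts mainly on epithelial cells such as keratinocytes; IL-24, first described as a melanoma differentiation-associated gene, has been studied for its effect on cancer cell survival.

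The files hold an intensity for each spot that was reduced by the background of the array and scaled to an array median of 25, called normalized intensity below, and they leave a spot blank where its signal lies near background. Between 87.1% and 91.3% of gene probes had a value on each array, and the number of arrays limits the precision. Of the 48 values of the 8 members on 6 arrays, 7 were blank. The brightest of 96 negative control spots reached between 2.58 and 3.76 in normalized intensity on 5 arrays and 9.35 on MB-231-control replicate 2. The brightest of 384 control spots named BLANK reached 6.34 on MB-231-maspin replicate 2 and 5.34 on MB-231-maspin replicate 3, and at most 2.94 elsewhere. SERPINB5 was read by a dim probe at 5.10, 5.61 and 4.11 on the 3 control-labelled arrays and 4.20, 2.79 and 4.40 on the 3 maspin-labelled arrays. SERPINB5 was thus not higher on the maspin-labelled arrays (log2 difference -0.40 ± 0.20 SE, limma adjusted p = 0.546 in the fit without a minimum on the mean). Where on the transcript this probe lies is not given in the sources used here, so it cannot be told whether it reads the introduced copy. The study examined maspin in both lines by RT-qPCR and western blot, which are not analysed here, and the groups below are named as the arrays are labelled. The mesenchymal and triple-negative markers set for the line were checked, and VIM, CD44, AXL, CAV1 and MSN, set as present, passed the minimum. Of those set as low or absent, ESR1 was blank on all 6 arrays and PGR lay below the minimum. ERBB2, EPCAM and CDH1, also set as low or absent, passed the minimum. Their means on the brightest probe were 16.8, 103 and 55.5 on the control-labelled arrays and 16.7, 102 and 55.2 on the maspin-labelled arrays.

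IL24 gave a normalized intensity of 4.72, 4.76 and 3.33 on the control-labelled arrays and of 21.0, 21.6 and 19.5 on the maspin-labelled arrays. All 3 maspin-labelled arrays lay above all 3 control-labelled arrays, and within each group the values lay close together. The means were 4.27 ± 0.816 (SD, n = 3) and 20.7 ± 1.13 (SD, n = 3), a ratio of 4.85 and a log2 difference of 2.30 ± 0.14 (SE). IL24 lay near the detection limit on the control-labelled arrays: before scaling, its spot stood 9.19, 9.49 and 6.73 raw units above background there, against 46.65, 53.49 and 34.61 on the maspin-labelled arrays. A negative control spot outshone it on MB-231-control replicate 2 (1 spot of 96), and none did on the other 5 arrays. The fold therefore rests on a control level of a few units. It moved with how that level was treated. The log2 difference was 0.63 after normexp background correction, with an offset of 50 raw units added to each spot, and quantile normalization. It was 1.11 on log2(value + 10). Both settings add a constant before the log2 step, which by itself shrinks the log2 difference of a dim spot. In bulk RNA, more IL24 per cell and more cells that express IL24 cannot be told apart.

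Across all genes, 109 of 12767 tested (0.854%) passed an adjusted p under 0.05, 68 of them higher (0.533%) and 41 lower (0.321%) on the maspin-labelled arrays. An unadjusted p under 0.05 in limma was reached by 1702 of the 12767, 1212 of them higher and 490 lower. The groups did not overlap, in either direction, for 2639 of the 12767 (20.7%). Each gene whose groups are said below to lie apart stands beside this share. 3 members passed the minimum that the study's methods set, a mean above 10 in either group: IL24, IL22RA1 and IL10RB. 1 of these 3, IL24, passed the adjusted threshold, which the choice of IL24 fixed. The other 5 members lay below the minimum, and IL24 passed it only on the maspin-labelled arrays.

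**Figure D1:**
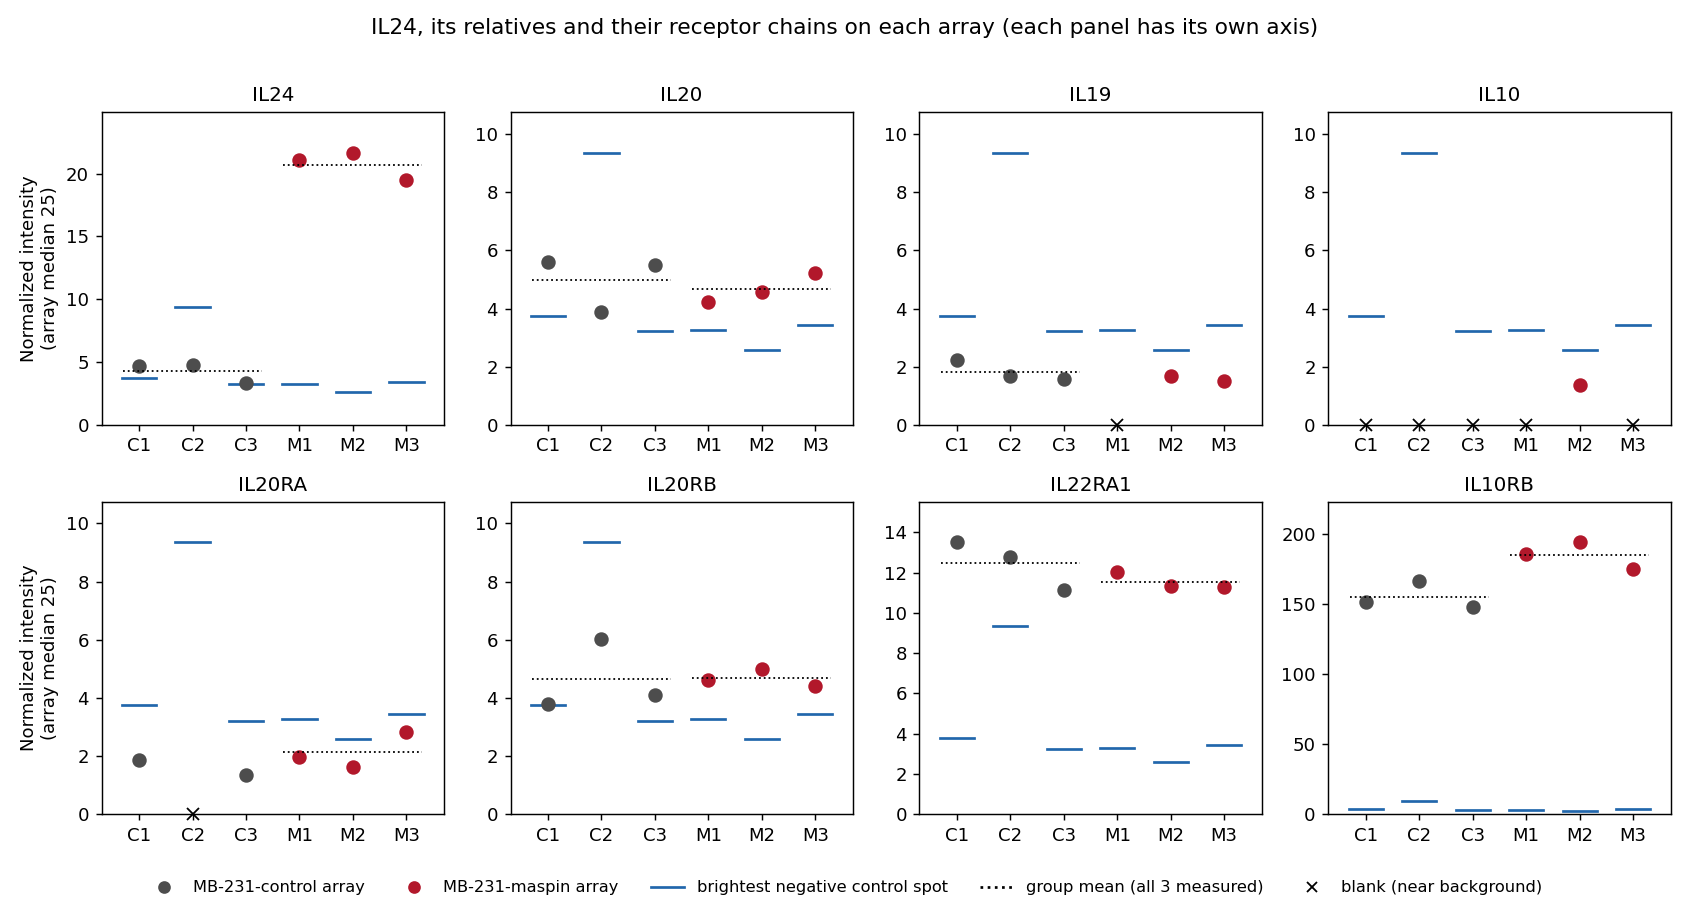
Normalized intensity (array median 25, linear axis per panel) of the 8 members on each array, with C1 to C3 for the arrays labelled MB-231-control and M1 to M3 for those labelled MB-231-maspin; blue lines mark the brightest negative control spot of the array, dotted lines the mean of a group measured on all 3 arrays, and crosses blank spots. IL24 sits between 3.33 and 4.76 on the control-labelled arrays and between 19.5 and 21.6 on the maspin-labelled arrays, while IL20, IL20RB and IL22RA1 overlap between the groups.

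Of the other 3 cytokines, IL20 and IL19 did not pass the test and IL10 was too dim to be tested. IL20, which binds the same receptor pairs as IL-24, read 5.60, 3.87 and 5.50 on the control-labelled arrays and 4.21, 4.58 and 5.21 on the maspin-labelled arrays. The groups overlapped, with a log2 difference of -0.08 ± 0.16 (SE, limma adjusted p = 0.904 in the fit without a minimum, where 0.309% of 17792 genes passed). IL19, which signals through the IL-20RA and IL-20RB pair, read 2.25, 1.69 and 1.56 on the control-labelled arrays and was blank, 1.67 and 1.52 on the maspin-labelled arrays. It lay below the brightest negative control spot on every array, so that its log2 difference of -0.18 ± 0.17 (SE, limma adjusted p = 0.755 in the same fit) compares values within the range of the negative control spots. IL10, the founding member of the family, was blank on 5 arrays and read 1.36 on MB-231-maspin replicate 2, where 21 of 96 negative control spots were as bright or brighter. IL10 was not detectable above background.

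IL24, IL20, IL19 and IL10 are direct neighbours. IL24 was selected on its difference, IL20 and IL19 overlapped between the groups, and IL10 was too dim to be compared. The upstream windows of the 4 genes are shown so that the start of IL24 can be read beside those of its relatives. Each window holds the 250 bases upstream of the outermost annotated start, from RefSeq on GRCh38.p14: chr1:206897193-206897442 (plus strand) for IL24, chr1:206863315-206863564 (plus strand) for IL20, chr1:206770523-206770772 (plus strand) for IL19 and chr1:206772495-206772744 (minus strand) for IL10. The IL19 window lies inside the annotated IL10 gene on the opposite strand. Each is written 5′ to 3′ in the direction of its gene, with matches to any of 4 motifs in capitals.
IL24: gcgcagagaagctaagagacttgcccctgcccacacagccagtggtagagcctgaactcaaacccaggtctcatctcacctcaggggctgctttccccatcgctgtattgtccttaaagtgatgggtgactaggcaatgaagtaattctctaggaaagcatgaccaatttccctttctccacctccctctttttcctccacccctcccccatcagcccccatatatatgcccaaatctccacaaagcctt
IL20: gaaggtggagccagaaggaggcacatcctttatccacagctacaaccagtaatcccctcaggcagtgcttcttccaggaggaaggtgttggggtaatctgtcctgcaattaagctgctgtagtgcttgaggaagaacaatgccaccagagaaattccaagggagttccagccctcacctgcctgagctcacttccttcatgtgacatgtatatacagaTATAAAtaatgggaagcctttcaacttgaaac
IL19: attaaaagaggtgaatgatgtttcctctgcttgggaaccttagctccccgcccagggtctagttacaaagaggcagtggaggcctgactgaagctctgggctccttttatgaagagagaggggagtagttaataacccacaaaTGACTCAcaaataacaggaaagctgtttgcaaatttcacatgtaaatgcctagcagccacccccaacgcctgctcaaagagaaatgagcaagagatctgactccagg
IL10: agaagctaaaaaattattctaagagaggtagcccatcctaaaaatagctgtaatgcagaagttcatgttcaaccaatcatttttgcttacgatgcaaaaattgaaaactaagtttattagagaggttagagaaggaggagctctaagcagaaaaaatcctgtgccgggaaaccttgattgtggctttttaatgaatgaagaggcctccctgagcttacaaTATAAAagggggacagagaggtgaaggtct
The motifs, searched on both strands, were TGANTCA for AP-1, TTCNNNGAA for STAT proteins, TTGCNNAA for C/EBP proteins and TATAAA for the TATA box. Of 35116 promoter windows of the same length, 6.57% held the AP-1 letters, 6.57% the STAT letters, 9.05% the C/EBP letters and 10.7% the TATA box. The IL24 window held none of the 4. The IL20 and IL10 windows shown each held TATAAA, and the IL19 window shown held TGACTCA. IL20, IL19 and IL10 have further annotated starts: a second IL19 window held a STAT match, and a second IL10 window held the AP-1 match of the IL19 window, the same site read on the other strand. The remaining windows of IL20 and IL10 held none of the 4. Among the receptor genes, the IL22RA1 window held 1 AP-1 match and 1 C/EBP match, the outermost IL20RA window held TATAAA, and those of IL20RB and IL10RB held none. A match is a string of letters and no evidence that a factor binds there.

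In the order of RefSeq genes on GRCh38.p14, IL24 lies between IL20 and FCMR, and 14 neighbours from EIF2D to C4BPA were read with it. 5 of these 14 passed the minimum and none passed the adjusted threshold. C4BPB, a chain of the C4b-binding protein of the complement system, came nearest, with a mean normalized intensity of 130 ± 9.84 (SD, n = 3) on the control-labelled and 177 ± 4.35 (SD, n = 3) on the maspin-labelled arrays. The groups of C4BPB did not overlap, as for 20.7% of all genes tested, with a log2 difference of 0.44 ± 0.08 (SE, limma adjusted p = 0.0629). The adjusted p of C4BPB ran from 0.00924 after normexp and quantile normalization to 0.366 without MB-231-control replicate 1. FCMR, an IgM receptor gene that overlaps the far end of IL24 in the annotation, read 10.1, 8.21 and 10.3 on the control-labelled arrays and 8.08, 7.71 and 8.57 on the maspin-labelled arrays. FCMR overlapped between the groups and did not pass (log2 difference -0.23 ± 0.11 SE, limma adjusted p = 0.535 in the fit without a minimum). The nearest tested gene beyond IL10, MAPKAPK2, which encodes a kinase downstream of p38, differed by 0.12 ± 0.10 on the log2 scale (SE, limma adjusted p = 0.632). DYRK3, EIF2D and YOD1 differed by between -0.07 and -0.00 on the log2 scale, with overlapping groups.

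**Figure D2:**
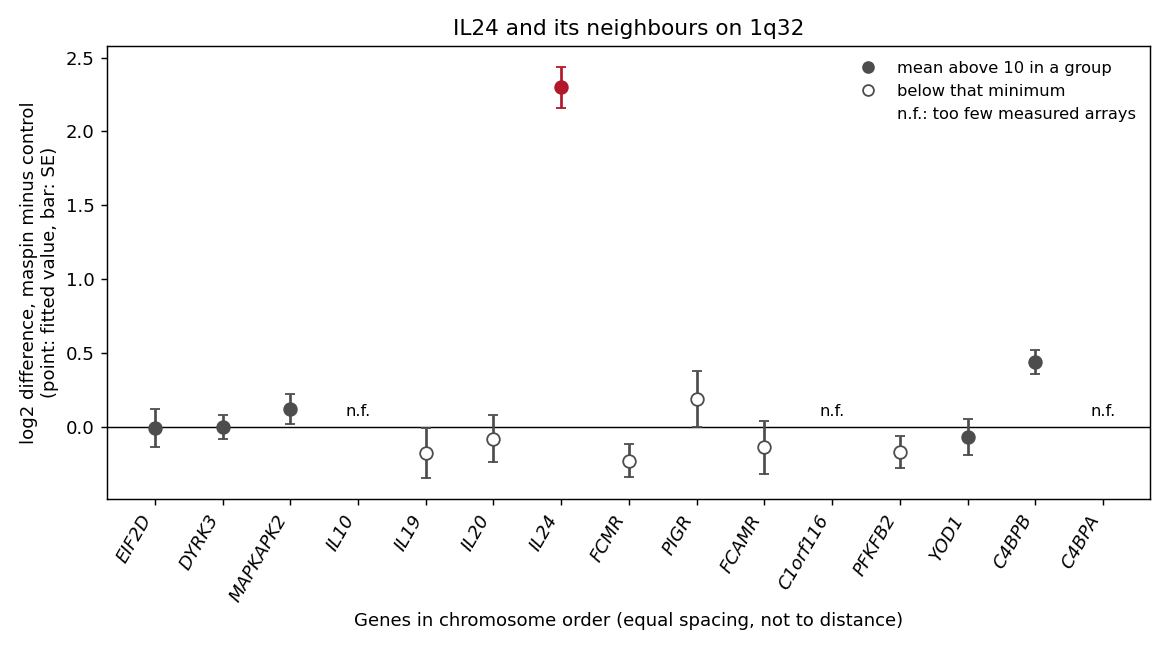
Log2 difference, maspin-labelled minus control-labelled arrays (point) with its standard error (bar), of IL24 and 14 neighbours in chromosome order at equal spacing; filled points passed the minimum, open points come from the fit without it, and n.f. marks genes measured on too few arrays. IL24 stands at 2.30, C4BPB at 0.44 and MAPKAPK2 at 0.12.

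The receptor chains were next compared. IL-24 binds IL-20RB paired with either IL-20RA or IL-22RA1. IL20RA read 1.86, blank and 1.35 on the control-labelled arrays and 1.98, 1.63 and 2.81 on the maspin-labelled arrays, below the brightest negative control spot on all of them. It was not detectable above background, and its log2 difference of 0.40 ± 0.26 (SE, limma adjusted p = 0.640 in the fit without a minimum) compares values within the range of the negative control spots. IL20RB, the chain common to both pairs, read 3.80, 6.02 and 4.12 on the control-labelled arrays and 4.62, 4.99 and 4.39 on the maspin-labelled arrays. The groups overlapped, and the means were 4.64 ± 1.20 and 4.67 ± 0.301 (SD, n = 3 each), a log2 difference of 0.04 ± 0.18 (SE, limma adjusted p = 0.965 in the fit without a minimum). Its signal exceeded the brightest negative control spot on 5 of 6 arrays. On MB-231-maspin replicates 2 and 3 it lay below the brightest BLANK control spot (6.34 and 5.34), as did IL20.

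IL22RA1, the chain that lets IL-20 and IL-24 signal without IL-20RA and that also serves IL-22, was measured above the negative control spots on all 6 arrays. It read 13.5, 12.8 and 11.1 on the control-labelled arrays and 12.0, 11.3 and 11.3 on the maspin-labelled arrays. The groups overlapped, with a log2 difference of -0.11 ± 0.09 (SE, limma adjusted p = 0.658) and a 95% interval from -0.32 to 0.11. A change of IL22RA1 as large as that of IL24 lies outside this interval.

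IL10RB, the second chain of the receptors for IL-10, IL-22, IL-26 and the lambda interferons, read 151, 166 and 148 on the control-labelled arrays and 185, 194 and 175 on the maspin-labelled arrays. All 3 maspin-labelled arrays lay above all 3 control-labelled ones, as was the case for 20.7% of the 12767 genes tested in one direction or the other. The means were 155 ± 9.84 and 185 ± 9.50 (SD, n = 3 each), a ratio of 1.19 and a log2 difference of 0.25 ± 0.08 (SE, 95% interval 0.06 to 0.44). The difference did not pass after adjustment over all genes (limma p = 0.0157, adjusted p = 0.245); 1702 genes had an unadjusted p under 0.05, and 3 arrays against 3 cannot reach an exact permutation p under 0.1. Before scaling, the raw intensity of IL10RB overlapped between the groups, at 363.3, 400.2 and 368.7 on the control-labelled and 480.1, 549.1 and 378.6 on the maspin-labelled arrays, so that the separation of MB-231-maspin replicate 3 depends on the scaling of the array. The raw intensity of IL24 did not overlap, at 78.3, 78.3 and 76.5 against 115.7, 123.8 and 102.4. IL24 was selected on its difference between these arrays, so this is a description and no check.

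**Figure D3:**
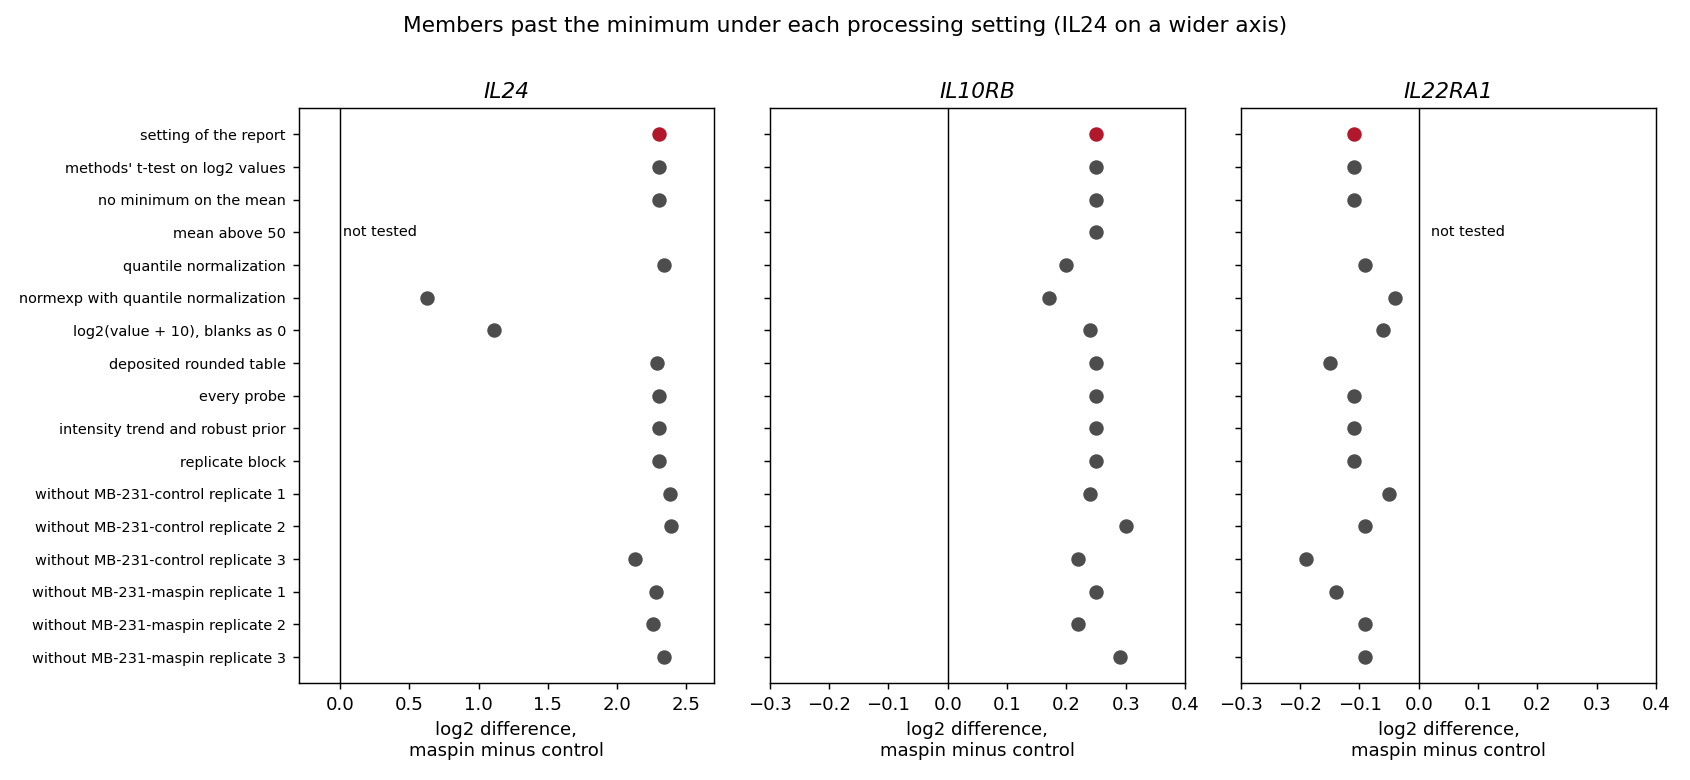
Log2 difference, maspin-labelled minus control-labelled arrays, of the 3 members past the minimum under the setting of the report (red) and under 16 alternatives (grey), with IL24 on a wider axis. IL24 lies between 2.13 and 2.39 under all alternatives but 2, at 0.63 and 1.11, and was not tested where a mean above 50 was asked; IL10RB lies between 0.17 and 0.30 and IL22RA1 between -0.19 and -0.04.

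Other cytokines and receptor chains of the class II family were read beside the members. Of 15 listed genes, 14 were on the array with a symbol, 5 passed the minimum and 0 passed the adjusted threshold in limma. An unadjusted p under 0.05 was reached by 2 of these 5, beside 1702 of all 12767 genes tested. The median log2 difference of the 5 was 0.10, beside 0.04 over all genes tested. IFNGR1, the ligand-binding chain of the interferon gamma receptor, read 121, 131 and 124.5 on the control-labelled arrays and 162, 146 and 145 on the maspin-labelled arrays. Its groups did not overlap, as for 20.7% of all genes tested, with a log2 difference of 0.27 ± 0.08 (SE, limma adjusted p = 0.213). IFNAR1, a chain of the type I interferon receptor, differed by 0.25 ± 0.10 on the log2 scale with overlapping groups (SE, limma adjusted p = 0.319). IFNAR2 was read by 2 probes that differed. The brighter one, which stood for the gene, overlapped between the groups (log2 difference 0.10 ± 0.17 SE, limma adjusted p = 0.840). The dimmer one did not overlap, at 43.9, 48.0 and 46.0 on the control-labelled and 59.2, 62.3 and 61.6 on the maspin-labelled arrays. IL10RA, the IL-10-binding chain, lay below the minimum, at 5.02, 6.06 and 3.85 against 6.77, 5.46 and 5.36, and its groups overlapped. The 9 genes below the minimum also included IL22 and IL26, which share receptor chains with the members.

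Downstream of the receptors, 9 of 11 JAK and STAT genes passed the minimum and 0 passed the adjusted threshold, or an unadjusted p under 0.05, in limma. All 9 overlapped between the groups, with a median log2 difference of 0.07. Of the kinases that sit on these receptors, JAK1 differed by 0.08, TYK2 by 0.09 and JAK2 by -0.18 on the log2 scale, with limma adjusted p-values of 0.804, 0.708 and 0.514. STAT3, the main mediator of IL-10 family signals, had means of 107.5 ± 18.7 and 127 ± 8.65 (SD, n = 3 each) and a log2 difference of 0.25 ± 0.13 (SE, limma adjusted p = 0.431). STAT2 differed by 0.07, STAT5A by -0.04, STAT5B by 0.06 and STAT6 by 0.03 on the log2 scale, and JAK3 and STAT4 lay below the minimum. These are transcript levels, and the arrays do not read phosphorylation.

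Among inhibitors of JAK-STAT signalling, 1 of 15 tested genes rose, none fell and 14 did not pass, while 0.854% of all genes tested passed. In limma, 3 of the 15 had an unadjusted p under 0.05, beside 1702 of all 12767. The median log2 difference of the 15 was 0.11, beside 0.04 over all genes tested. SOCS2, a suppressor of cytokine signalling best known for restraining growth hormone signals, read 24.2, 27.6 and 23.0 on the control-labelled arrays and 42.4, 40.0 and 40.3 on the maspin-labelled arrays. The groups of SOCS2 did not overlap, as for 20.7% of all genes tested, with a log2 difference of 0.72 ± 0.09 (SE, limma adjusted p = 0.0112). The call of SOCS2 was lost without MB-231-control replicate 1 (adjusted p = 0.0834), without any one of the maspin-labelled arrays (0.0798 to 0.0893) and with the methods' t-test (0.113). SOCS3, the suppressor that STAT3 itself induces, differed by -0.07 on the log2 scale and did not pass. Of 18 tested STAT3 target genes, 0 passed the adjusted threshold in limma and 1 had an unadjusted p under 0.05, with a median log2 difference of -0.06. VEGFA, the angiogenic growth factor, came nearest at 0.33 ± 0.11 (SE, limma adjusted p = 0.240), followed by FOS at -0.15 (limma adjusted p = 0.463).

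Genes known to act on IL24 or to be studied with it were read in the same way. Their counts stand beside 1702 of all 12767 genes tested with an unadjusted p under 0.05 in limma, 1212 higher and 490 lower. AP-1 and C/EBP proteins bind the IL24 promoter in earlier work, and 0 of 14 tested genes of these families passed in limma (3 with an unadjusted p under 0.05), with a median log2 difference of -0.07. Nearest were ATF3 at -0.27 ± 0.08 (SE, limma adjusted p = 0.213) and BATF3 at -0.24 ± 0.08 (SE, limma adjusted p = 0.267), both lower on all 3 maspin-labelled arrays. Cytokine transcripts are also regulated through AU-rich elements and the p38 kinase, and 0 of 14 tested genes of that list passed in limma (1 with an unadjusted p under 0.05), with a median log2 difference of 0.11. Nearest of those tested were MAPK14, which encodes p38 alpha, at 0.26 (limma adjusted p = 0.234) and the RNA-binding protein gene TIA1 at 0.32 (limma adjusted p = 0.394). Of the 2 listed genes below the minimum, the groups of KHSRP overlapped and those of MAP2K6 did not. MAP2K6, on a dim probe, read 3.80, 4.27 and 3.81 against 6.11, 5.77 and 6.77. Its log2 difference was 0.65 ± 0.10 (SE, limma adjusted p = 0.0788 in the fit without a minimum). Of the endoplasmic reticulum stress, growth arrest and cell death genes that have been studied with IL-24, 0 of 19 tested passed in limma (6 with an unadjusted p under 0.05), with a median log2 difference of 0.16. DDIT3, the stress transcription factor CHOP, had means of 377 ± 34.3 and 279 ± 8.94 (SD, n = 3 each) and a log2 difference of -0.43 ± 0.09 (SE, limma adjusted p = 0.0912). The survival gene BCL2 differed by 0.40 ± 0.12 on its brightest probe (SE, limma adjusted p = 0.223), with means of 8.92 and 11.7. Another BCL2 probe went the other way with overlapping groups, at means of 9.80 on the control-labelled and 9.08 on the maspin-labelled arrays. A further BCL2 probe had a value on only 3 arrays. DDIT3 passed after quantile normalization (limma adjusted p = 0.0224), after normexp with it (0.00395) and without MB-231-control replicate 3 (0.0371). BCL2, on its brightest probe, passed without MB-231-control replicate 2 (limma adjusted p = 0.0477).

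IL24 was also set beside other cytokine genes that epithelial cells make. Of 16 listed inflammatory cytokines, 9 were tested, 1 rose, 1 fell and 7 did not pass, while 0.854% of all genes tested passed. In limma, 4 of the 9 had an unadjusted p under 0.05, beside 1702 of all 12767. The median log2 difference of the 9 was -0.15, beside 0.04 over all genes tested. IL11, a cytokine of the IL-6 family that signals through gp130 and STAT3, read 96.8, 121 and 77.9 on the control-labelled arrays and 202, 214 and 196 on the maspin-labelled arrays. Its groups did not overlap, as for 20.7% of all genes tested, with a log2 difference of 1.07 ± 0.15 (SE, limma adjusted p = 0.0191). CSF2, the granulocyte-macrophage colony-stimulating factor gene, read 153, 161 and 130 against 99.8, 93.4 and 89.8 and fell by 0.65 on the log2 scale (SE 0.10, limma adjusted p = 0.0303). Both calls were lost without MB-231-control replicate 1 (adjusted p = 0.0898 for IL11 and 0.175 for CSF2), without any one maspin-labelled array (at least 0.098 and 0.108) and without a minimum on the mean (0.0781 and 0.0967). CXCL2, a neutrophil chemokine gene, lay just outside at -0.47 ± 0.08 (SE, limma adjusted p = 0.0556), and passed without MB-231-control replicate 2 (0.0317) or replicate 3 (0.0499). CXCL8, another neutrophil chemokine gene, differed by -0.32 on the log2 scale (limma adjusted p = 0.150) and passed after quantile normalization (0.0396) and after normexp with it (0.00632).

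**Figure D4:**
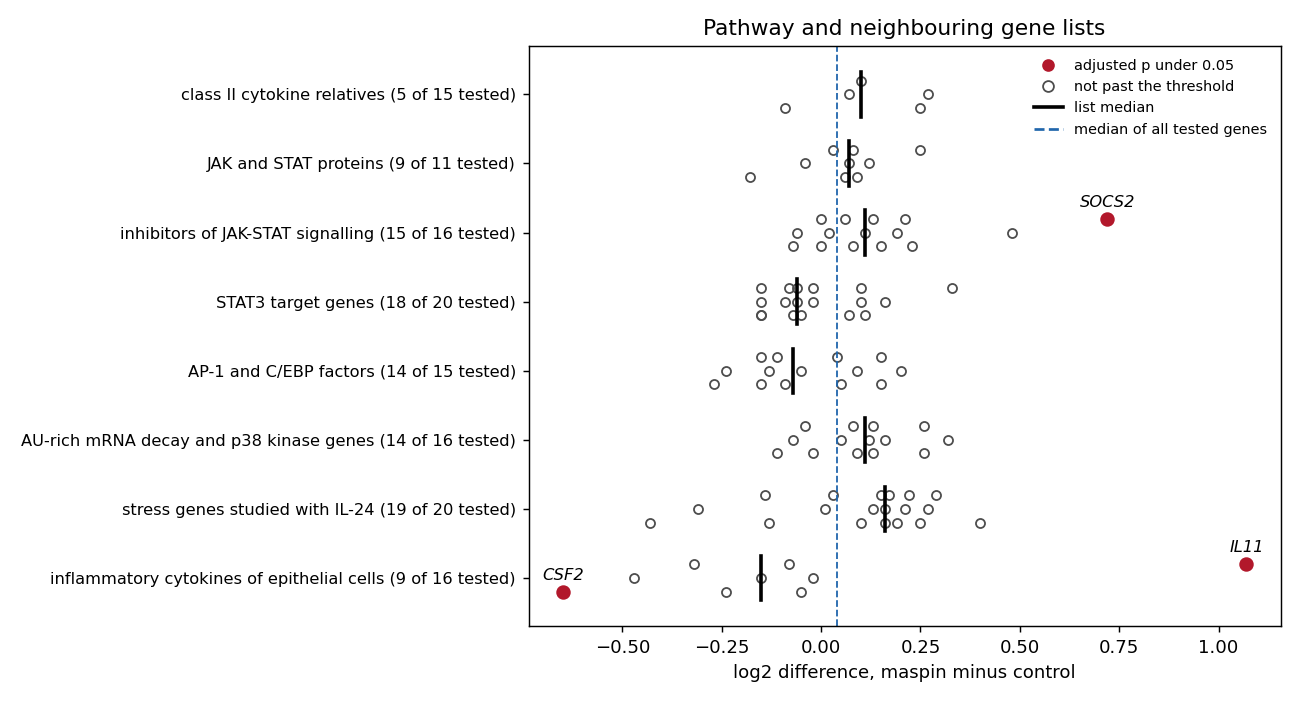
Log2 difference, maspin-labelled minus control-labelled arrays, of each tested gene in 8 lists (points, spread vertically to be seen), with the list median (black bar) and the median of all tested genes (dashed line, 0.04). SOCS2 at 0.72, IL11 at 1.07 and CSF2 at -0.65 passed the adjusted threshold, and the other points did not.

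Markers of cells that usually express these genes were followed as well. Of 10 leukocyte markers, 2 passed the minimum and 0 passed the adjusted threshold in limma (1 with an unadjusted p under 0.05): CD14 differed by 0.33 ± 0.12 on the log2 scale (SE, limma adjusted p = 0.293), with all 3 maspin-labelled arrays higher, and CSF1R by -0.03. The summed normalized intensity of the leukocyte markers lay between 57.4 and 70.3 on the control-labelled and between 64.0 and 69.8 on the maspin-labelled arrays. PTPRC, the pan-leukocyte marker, was blank on MB-231-maspin replicates 1 and 3 and at most 2.03 elsewhere, and MS4A1 was blank on all 6 arrays. Of 6 keratinocyte markers, 4 passed the minimum (KRT5, KRT14, KRT10 and IVL) and 0 had an unadjusted p under 0.05 in limma, with a summed normalized intensity between 287 and 294 on the control-labelled and between 279.6 and 308 on the maspin-labelled arrays. Both lines were cultured MDA-MB-231 cells, and the relation of these markers to the level of IL24 was not tested.

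The genes whose pattern over the 6 arrays was most like that of IL24 were ranked among 12761 tested genes with a value on all arrays, by Pearson's r of the log2 values. The 5 nearest were PFKL (r = 0.9997), TBC1D5 (0.9991), FAM69A (0.9938), SP140 (0.9926) and KISS1 (0.9921). With 6 arrays in 2 groups and a common scaling per array, r mostly follows the contrast that selected IL24, so it is given as a description. PFKL, which encodes liver-type phosphofructokinase, had a log2 difference of 0.10, and TBC1D5 and FAM69A of 0.34 and 0.20. SP140, a nuclear body protein gene, differed by 0.80, at 13.8, 13.6 and 11.3 on the control-labelled and 23.3, 21.6 and 22.2 on the maspin-labelled arrays. KISS1, which encodes the kisspeptin precursor, differed by 2.41, at 40.5, 48.0 and 39.6 against 224, 228 and 229. Among these 5, KISS1 had a log2 difference above that of IL24, and the other 4 had smaller ones.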

How the data were processed

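Total RNA of the 6 samples was amplified, labelled with Cy5 and measured on 3D-Gene arrays. The deposited scanner files give a raw intensity per spot, an intensity from which the authors subtracted the background, and the normalized intensity, which the authors scaled to a median of 25 per array; near-background spots are blank. A second deposited table gives these values as whole numbers after rounding by the authors, treated here as a score and used as an alternative. A gene was tested where its mean exceeded 10 in one of the groups and at least 2 arrays of each had a value, on its brightest probe. Maspin was compared with control on log2 values in R 4.3.3 with limma 3.58.1 (functions lmFit and eBayes, two-sided tests), and p-values were adjusted over 12767 genes by the Benjamini-Hochberg method at 0.05. The members and lists were chosen with earlier results of these data known, and no p was adjusted over a list. Named genes are all members, the JAK and STAT genes, SERPINB5, of each list the genes past the threshold or else those with the 2 smallest p-values, and the 5 genes most correlated with IL24. 1 named gene is not reported here. FCMR, IL10RA, IFNAR2, SOCS3, KHSRP, MAP2K6, CXCL2, CXCL8, the other neighbours and the markers were named after their values were seen. Below the minimum, values come from the same fit over 17792 genes. Motifs were counted in RefSeq promoter windows (GRCh38.p14; 8 of 8 members matched by Entrez identifier). The code was tested on simulated data. Other steps ran in Python 3.11.15 (matplotlib 3.10.9, pandas 2.3.3, scipy 1.17.1).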

Additional observations from a re-analysis of the deposited data

How the results depend on the processing

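The direction of IL24, IL10RB and IL22RA1 was the same under every alternative that tested them (15 for IL24 and IL22RA1, 16 for IL10RB). IL10RB passed under none (adjusted p 0.0752 to 0.683) and IL22RA1 under none (0.434 to 0.936). The log2 difference of IL24 was 0.63 with normexp (offset of 50 raw units) and quantile normalization. It was 1.11 on log2(value + 10) with blanks as 0, and both settings add a constant before the log2 step. The count of members called, 1, was 0 with the methods' t-test and 0 where a mean above 50 was asked, since IL24 is then left out. The 109 genes called became 21 with the methods' t-test, 55 without a minimum, 43 at a mean above 50, 239 with normexp and quantile normalization, and 29 to 218 when 1 array was left out, with 218 without MB-231-control replicate 2. Of the lists, the inhibitors went from 1 to 0 with the t-test. They also went to 0 at a mean above 50, since SOCS2 is then left out. With normexp they went to 2, and with 1 array left out to 0 to 2, SOCS5 being the second gene. The stress genes went from 0 to 1 with quantile normalization, with normexp and without MB-231-control replicate 2 or 3 (0 to 1 with 1 array left out). Counting IL24, the genes of its chromosome region went from 1 to 0 with the t-test and at a mean above 50, to 2 with quantile normalization, normexp or log2(value + 10), and to 1 to 2 with 1 array left out, C4BPB being the second. The inflammatory cytokines went from 2 to 0 with the t-test and without a minimum, to 3 with quantile normalization and with normexp, CXCL8 being the third, and to 0 to 3 with 1 array left out. The counts of 0 for the class II relatives, the JAK and STAT genes, the STAT3 targets, the AP-1 and C/EBP factors and the AU-rich and p38 genes were 0 under all 16 alternatives, the t-test included. The cause of these shifts in the counts was not tested. Deviations of same-numbered arrays correlated at -0.347, 0.494 and 0.216, and those of differently numbered arrays at -0.495 to 0.294. With 3 arrays per group, these correlations cannot decide whether the numbers pair the arrays. With a replicate block, 117 genes passed; in this balanced design a block leaves every log2 difference of a gene measured on all arrays as it was (2.30 for IL24), and the 1 member called is IL24, which was selected on this contrast. The values of IL19, IL10 and IL20RA are limited by signal over background, and so is the control level of IL24.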
